A study of Homo sapiens and Mus musculus with 15 samples.

Results

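The BCL2 family of cell survival and death genes was followed through 5 groups of myeloma cells. Its 10 members were taken by symbol from the gene tables: the pro-survival genes BCL2, BCL2L1, MCL1 and BCL2A1, the pore-forming effectors BAX and BAK1, and the BH3-only genes BAD, BCL2L11, PMAIP1 and BBC3. All 10 were found among the 23346 genes of the human tables. In the 23329 genes of the mouse tables they correspond to 12 symbols, because BCL2A1 has 3 copies there, Bcl2a1a, Bcl2a1b and Bcl2a1d. RNA was sequenced from a human line, RPMI-8226 (8226 below), which came from a plasma cell myeloma, and from a mouse line, 5TGM1, passaged from a plasma cell tumour that arose in C57Bl/KaLwRij mice. 5TGM1 was studied naive and resistant to bortezomib, and 8226 naive, resistant to bortezomib and resistant to carfilzomib, with 3 libraries a group and 15 in all. The resistant lines had grown for months in rising drug and were then kept in drug, the mouse line in bortezomib at 20 nM and the human lines in bortezomib or carfilzomib at 10 nM. All of them were off the drug for 5 days before 10000000 cells per sample were lysed for RNA. The labels give 1 resistant line for each drug and parental line, so the drug, the resistance and the derivation of that line cannot be told apart. They do not say whether replicates were separate cultures, so a p-value here reflects the scatter of the libraries alone, and that scatter may be technical.

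The family decides whether the outer mitochondrial membrane stays intact. BAX and BAK form pores in that membrane, pro-survival proteins such as BCL-2, BCL-XL and MCL-1 hold them and their activators in check, and BH3-only proteins occupy the groove of the pro-survival proteins or activate the effectors directly. Plasma cells and most myelomas lean on MCL-1, and inhibitors of BCL-2 are active in a subset of the disease. Bortezomib, a boronate that binds the proteasome reversibly, and carfilzomib, an epoxyketone that binds it irreversibly, slow the breakdown of short-lived proteins. MCL-1, NOXA and BIM are themselves cleared by the proteasome, so their protein levels need not follow their RNA, which alone was measured here.

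Reads on genes numbered 31709636 to 58419576 per library in 8226 and 49097494 to 72288680 in 5TGM1. Levels are read counts scaled for depth (CPM, on library sizes adjusted by TMM). A gene was called when its Benjamini-Hochberg adjusted p, over all genes tested, was below 0.05 in the quasi-likelihood F test of edgeR. Most genes were called in every comparison, so the members are read against that background. All 8 plasma cell markers reached 1 CPM in every 8226 group and, of the 7 found in the 5TGM1 tables, 6 did so, Cd38 being below it. Their sum was 2353 to 2545 CPM in naive, 1711 to 1748 CPM in bortezomib-resistant and 1532 to 1592 CPM in carfilzomib-resistant 8226, and it was 3913 to 4120 CPM in naive and 4936 to 5032 CPM in resistant 5TGM1. The single markers did not all move with the sum. In bortezomib-resistant 8226, TNFRSF17 (log2 fold change 1.81), CD38 (0.65) and IRF4 (0.60) were called higher and the other 5 lower. In carfilzomib-resistant 8226, CD38 (1.44) was called higher and the other 7 lower. In 5TGM1, 3 of the 6 tested were called higher and 2 lower. The part of these marker shifts in the members' changes was not tested. T cell markers summed to at most 1.79 CPM and fibroblast markers to at most 2.31 CPM in any library. Scaling by library size alone moved the median log2 fold change of all genes in bortezomib-resistant 8226 from -0.026 to 0.16, and the share of called genes that were higher from 47.9% to 58.8%. For the difference between the lines that share went from 47.0% to 58.2%.

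In bortezomib-resistant 8226, 5 of the 10 members were called higher than in naive cells and 1 was called lower. BCL2, BCL2L1, BAX, BAK1 and PMAIP1 rose and BCL2L11 fell, so that RNAs of survival and of death genes were both among those that rose. Over all 13910 genes tested, 38.2% were called higher, 41.6% lower and 79.8% either way. Only BCL2L11 changed at least 2-fold, downwards, as 19.4% of all genes did (32.5% in either direction). For 7 members no naive library lay within the range of the resistant ones, as for 79.7% of all genes. The median log2 fold change of the members was 0.24, and that of all genes was -0.026.

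In carfilzomib-resistant 8226, 5 of the 10 members were called higher and 4 lower than in naive cells. BCL2A1 rose and BCL2L1 and BCL2 fell by the widest margins, while the calls of the remaining 6 were of less than 1.5-fold. The background was 35.0% of genes called higher, 36.7% lower and 71.7% either way. BCL2A1 and BCL2L1 passed a 2-fold change, as did 24.3% of all genes. Libraries did not overlap for 7 members, against 73.1% of all genes. The members' median log2 fold change was -0.069, with -0.0035 for all genes. This comparison and the bortezomib one share the same 3 naive libraries, so likeness between them is not independent.

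**Figure D1:**
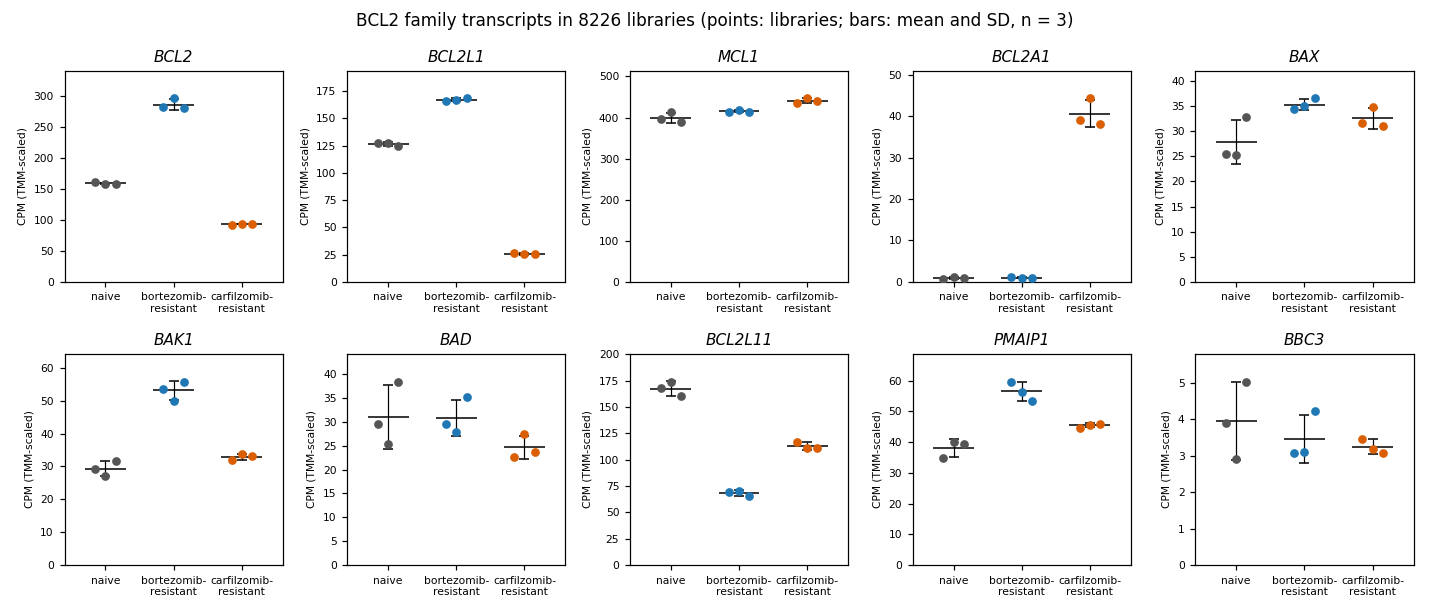
TMM-scaled CPM of the 10 members in the 9 libraries of 8226; points are libraries and bars are the mean and SD of 3. BCL2 and BCL2L1 are highest in bortezomib-resistant cells and lowest in carfilzomib-resistant cells, BCL2A1 stands at 38.2 to 44.3 CPM in carfilzomib-resistant cells only, and BCL2L11 is highest in naive cells.

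Among the pro-survival genes, BCL2, which encodes the founding member and the target of venetoclax, moved in opposite directions in the resistant 8226 lines. Its level was 160.5, 158 and 158 CPM in the naive libraries, 283, 296 and 280.0 CPM in the bortezomib-resistant ones and 92.5, 93.6 and 93.8 CPM in the carfilzomib-resistant ones. The 3 groups did not overlap, and every bortezomib-resistant library was above every other. BCL2 rose 1.80-fold in bortezomib-resistant cells, a log2 fold change of 0.85 ± 0.046 (SE; edgeR adjusted p = 1.18e-10). It was 1.70-fold lower in carfilzomib-resistant cells, at -0.77 ± 0.047 (edgeR adjusted p = 7.04e-10). In bulk RNA, fewer cells expressing a gene and less of its RNA per cell cannot be told apart.

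BCL2L1 encodes BCL-XL, and by alternative splicing the shorter BCL-XS, which gene counts do not separate. The naive libraries had 127, 128 and 124 CPM, the bortezomib-resistant libraries 166, 167 and 168 CPM and the carfilzomib-resistant libraries 26.3, 25.1 and 25.1 CPM. All 3 carfilzomib-resistant libraries were far below the rest, and the bortezomib-resistant ones were uniformly the highest. The fall in carfilzomib-resistant cells was 4.96-fold (-2.31 ± 0.05 on the log2 scale, edgeR adjusted p = 3.21e-15). The rise in bortezomib-resistant cells was 1.32-fold (0.40 ± 0.046, edgeR adjusted p = 1.03e-06).

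MCL1, whose protein is short-lived and on which plasma cells depend, varied least among the pro-survival members. It stood at 396, 413 and 388 CPM in naive, 414, 418 and 414 CPM in bortezomib-resistant and 435, 447 and 439 CPM in carfilzomib-resistant libraries. The bortezomib-resistant libraries lay just above the highest naive library, and the carfilzomib-resistant ones clear of both groups. The bortezomib difference was not called, at 0.058 ± 0.047 with an interval of -0.033 to 0.15 (log2, 95%, from the SE; edgeR adjusted p = 0.263). With scaling by library size alone it was 0.24 and was called. That scaling moved all genes the same way (edgeR adjusted p 0.000146; range over the alternatives 0.000146 to 0.603). The carfilzomib rise was 1.10-fold (0.14 ± 0.047, edgeR adjusted p = 0.0126).

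BCL2A1, the gene of the pro-survival protein BFL-1 (A1), is a known target of NF-kB in lymphoid and myeloid cells. It had the largest change of any member. Naive libraries had 0.763, 1.14 and 0.868 CPM and bortezomib-resistant libraries 1.20, 0.875 and 0.959 CPM, from 30 to 45 counts a library. Carfilzomib-resistant libraries had 39.2, 44.3 and 38.2 CPM, from 1835 to 2197 counts. The gene was thus low but detected in every library of the first 2 groups, which overlapped, and well measured in the last. The rise was 44.0-fold over naive cells (5.46 ± 0.12 on the log2 scale, edgeR adjusted p = 5.54e-15). For bortezomib-resistant cells the log2 difference was 0.14 ± 0.2 (edgeR adjusted p = 0.524), with an interval of -0.25 to 0.54.

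Macrophage markers changed in both resistant 8226 lines, and not in a single direction. Of the 4 tested, 2 were called higher and 2 lower in carfilzomib-resistant cells, where 71.7% of all genes were called either way. In bortezomib-resistant cells, where BCL2A1 was not called, 1 was called higher and 2 lower, beside 79.8% of all genes. The 5 macrophage markers summed to 52.6 to 57.7 CPM in naive, 18.1 to 18.7 CPM in bortezomib-resistant and 168 to 181 CPM in carfilzomib-resistant libraries. ITGAM, an integrin subunit of myeloid and some lymphoid cells, made up most of the last sum, at 158 ± 6.5 CPM against 5.21 ± 0.42 CPM in naive cells. MPEG1 was at 4.71 ± 0.49 and 0.91 ± 0.24 CPM. CD68 went the other way, from 48.3 ± 3.0 CPM in naive to 13.7 ± 0.30 CPM in carfilzomib-resistant libraries. The receptor CSF1R was at 0.059 CPM there, and CD163 had 0 counts in the 3 carfilzomib-resistant libraries. The part of other cells in the BCL2A1 result was not tested.

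The promoters of BCL2A1, the member that rose most, and BCL2L11, the member called lower in all 3 resistant lines, are shown because they differ in base composition. Each line gives the 250 bases before the gene's start in RefSeq (GRCh38.p14), 5′ to 3′ on the strand of the gene. BCL2A1 lies on the minus strand at chr15:79971197-79971446 and BCL2L11 on the plus strand at chr2:111120664-111120913. Capitals mark matches, on either strand, to the TATA box TATAAA and the STAT site TTCNNNGAA in BCL2A1, and to the FOXO site GTAAACA and the GC box GGGCGG in BCL2L11.
BCL2A1: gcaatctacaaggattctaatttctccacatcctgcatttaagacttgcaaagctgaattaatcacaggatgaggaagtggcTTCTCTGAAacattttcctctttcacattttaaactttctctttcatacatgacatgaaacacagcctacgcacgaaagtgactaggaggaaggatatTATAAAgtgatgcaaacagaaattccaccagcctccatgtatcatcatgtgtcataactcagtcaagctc
BCL2L11: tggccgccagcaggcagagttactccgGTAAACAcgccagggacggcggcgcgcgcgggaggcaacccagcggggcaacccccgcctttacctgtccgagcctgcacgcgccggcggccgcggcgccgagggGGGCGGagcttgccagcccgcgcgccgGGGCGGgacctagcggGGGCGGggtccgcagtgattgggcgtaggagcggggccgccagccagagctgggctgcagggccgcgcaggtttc
The BCL2A1 window is 38.8% G and C with 2 CpG dinucleotides. The BCL2L11 window is 76.8% G and C with 34. The medians over 35116 RefSeq promoters of the same length were 58.0% and 11. The TATA box of BCL2A1 starts 70 bases before the gene's start, and its STAT site 168 bases before. BCL2L11 has its FOXO site 223 bases before the start and GC boxes at 118, 91 and 75 bases before it. No match overlapped another.

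Of all promoters, 10.7% held the TATA box, 6.57% the STAT site, 2.98% the FOXO site and 42.6% the GC box, so the FOXO letters are the least common of these. Also searched were the AP-1 site TGANTCA (6.57% of promoters), the E-box CACGTG (6.34%), the CRE TGACGTCA (1.65%) and the NF-kB site (9.96%), and none was matched in these windows. Promoters of 7 members were matched by symbol in the table, those of BCL2, BCL2A1, BCL2L11, BAX, BAK1, PMAIP1 and BBC3. BAX held 4 E-boxes and 1 GC box, PMAIP1 4 GC boxes, BAK1 2 GC boxes, and BBC3 1 AP-1 site and 1 E-box. None of the motifs was matched in BCL2. These are matches of letters in short windows, and no binding was measured.

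Both pore-forming effectors rose in bortezomib-resistant 8226. BAX, which shuttles from the cytosol to mitochondria, was at 25.5, 25.2 and 32.9 CPM in naive, 34.4, 35.0 and 36.6 CPM in bortezomib-resistant and 31.6, 34.9 and 31.1 CPM in carfilzomib-resistant libraries. Naive replicate 3 was high for its group and overlapped the carfilzomib-resistant range, but not the bortezomib-resistant one. BAX rose 1.27-fold in bortezomib-resistant cells (0.34 ± 0.091, edgeR adjusted p = 0.00271). The carfilzomib difference was called in the fit over all 9 libraries, at 0.22 ± 0.09 (edgeR adjusted p = 0.0352), but not in every alternative (range of adjusted p 0.000204 to 0.16). The call ended without naive replicate 1 (log2 fold change 0.16), naive replicate 2 (0.16) or carfilzomib-resistant replicate 2 (0.18). It also ended with DESeq2 size factors (adjusted p 0.0522), in the DESeq2 Wald test (0.0511) and in the fit of the 2 groups alone (0.0577).

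BAK1 encodes BAK, the effector that sits in the mitochondrial membrane and is bound mainly by MCL-1 and BCL-XL. Its level was 29.2, 27.1 and 31.6 CPM in naive, 53.7, 49.9 and 55.8 CPM in bortezomib-resistant and 31.8, 33.8 and 33.1 CPM in carfilzomib-resistant libraries. Only the bortezomib-resistant libraries stood well apart. BAK1 rose 1.81-fold there (0.86 ± 0.067, edgeR adjusted p = 1.01e-08), about as much as BCL2 on the log2 scale. In carfilzomib-resistant cells the difference was 0.17 ± 0.067 (edgeR adjusted p = 0.0365; range over the alternatives 0.00699 to 0.128). That call ended without naive replicate 1 (log2 fold change 0.17), naive replicate 2 (0.11), carfilzomib-resistant replicate 2 (0.15) or carfilzomib-resistant replicate 3 (0.16). Adjusted p was also above the threshold with DESeq2 size factors (0.0630), in the DESeq2 Wald test (0.0667) and in the fit of the 2 groups alone (0.0505).

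BCL2L11 was the BH3-only member that changed most. It encodes BIM, an activator of BAX and BAK that binds all pro-survival proteins, in several splice forms that gene counts do not separate. Naive libraries had 168, 174 and 160.4 CPM, bortezomib-resistant libraries 69.2, 70.2 and 65.2 CPM and carfilzomib-resistant libraries 117, 111 and 111 CPM. The 3 groups were fully separate, with naive cells the highest and bortezomib-resistant cells the lowest. The fall was 2.46-fold with bortezomib resistance (-1.30 ± 0.054, edgeR adjusted p = 4e-12) and 1.48-fold with carfilzomib resistance (-0.57 ± 0.052, edgeR adjusted p = 1.03e-07).

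PMAIP1, the gene of NOXA, which binds MCL-1 and is induced by proteasome inhibitors in many cells, rose in both resistant 8226 lines. It was at 34.9, 40.2 and 39.3 CPM in naive, 59.7, 56.3 and 53.5 CPM in bortezomib-resistant and 44.8, 45.7 and 46.0 CPM in carfilzomib-resistant libraries. The groups did not overlap, and the bortezomib-resistant libraries were the highest. The rises were 1.48-fold (0.57 ± 0.064, edgeR adjusted p = 8.01e-07) and 1.19-fold (0.26 ± 0.064, edgeR adjusted p = 0.00217). These cells had been off the drug for 5 days, and the part of the drug in these rises was not tested.

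BAD and BBC3 varied between the naive replicates of 8226. BAD, whose protein is inactivated by phosphorylation and 14-3-3 binding, was at 29.6, 25.3 and 38.5 CPM in naive, 29.5, 28.0 and 35.2 CPM in bortezomib-resistant and 22.7, 27.5 and 23.8 CPM in carfilzomib-resistant libraries. Naive replicate 3 was the highest of all 9, and the groups compared with naive cells overlapped. The bortezomib difference was -0.0083 ± 0.13, with an interval of -0.26 to 0.24 (edgeR adjusted p = 0.956), and its sign turned when naive replicate 3 was left out (0.17). The carfilzomib difference was called at -0.34 ± 0.13 (edgeR adjusted p = 0.0268; range over the alternatives 0.00106 to 0.166). This call ended without naive replicate 3 (-0.16), carfilzomib-resistant replicate 1 (-0.27) or carfilzomib-resistant replicate 3 (-0.31), and with scaling by library size alone (-0.28).

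BBC3 encodes PUMA, a p53 target that binds all pro-survival proteins. It was low in 8226, at 3.90, 2.93 and 5.04 CPM in naive, 3.08, 3.09 and 4.22 CPM in bortezomib-resistant and 3.48, 3.19 and 3.08 CPM in carfilzomib-resistant libraries. Naive libraries spanned the range of the other groups. The differences were -0.19 ± 0.17 and -0.28 ± 0.17 (edgeR adjusted p = 0.335 and 0.147), with intervals of -0.53 to 0.16 and -0.61 to 0.048. Both became calls without naive replicate 2, the lowest naive library, at -0.36 and -0.45 (range of edgeR adjusted p over the alternatives 0.0371 to 1 and 0.0104 to 0.651).

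The resistant 8226 lines, which were kept at the same drug concentration, were compared directly to ask where bortezomib and carfilzomib resistance differed. BCL2A1 and BCL2L11 were higher in carfilzomib-resistant cells, and BCL2, BCL2L1, BAD, BAK1 and PMAIP1 were lower. Thus 2 of 10 members were called higher and 5 lower, where 39.9% and 37.0% of all genes were, and 76.9% either way. BCL2A1, BCL2L1 and BCL2 passed a 2-fold change, as did 27.9% of all genes, and libraries did not overlap for 8 members and 79.8% of all genes. The members' median was -0.22, against 0.02 for all genes.

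BCL2L1 was 6.55-fold lower in carfilzomib-resistant than in bortezomib-resistant cells (-2.71 ± 0.05, edgeR adjusted p = 4.08e-16). BCL2 was 3.07-fold lower (-1.62 ± 0.047, edgeR adjusted p = 7.08e-14), and BCL2A1 39.9-fold higher (5.32 ± 0.12, edgeR adjusted p = 5.61e-15). These 3 pro-survival genes differed more in size than any death gene among the members. Outside the members, the BH3-only gene BMF was lower at -1.76 ± 0.077. BIK was higher at 7.28 ± 0.24, a value that rests on 6 counts in bortezomib-resistant cells. BAK1 was 1.62-fold lower (-0.69 ± 0.066), PMAIP1 1.24-fold lower (-0.31 ± 0.064) and BCL2L11 1.66-fold higher (0.73 ± 0.053), with edgeR adjusted p of 1.26e-07, 0.000351 and 5.08e-09. BAD was called lower at -0.33 ± 0.13 (edgeR adjusted p = 0.0288; range 0.00105 to 0.155). That call ended without bortezomib-resistant replicate 3 (-0.22), carfilzomib-resistant replicate 1 (-0.26) or carfilzomib-resistant replicate 3 (-0.30). MCL1, BAX and BBC3 were not called, with log2 intervals of -0.0067 to 0.18, -0.29 to 0.056 and -0.43 to 0.25. With library size alone the MCL1 difference turned to -0.040, and BAX was called lower at -0.24 (range of edgeR adjusted p for BAX 0.0232 to 0.492).

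**Figure D2:**
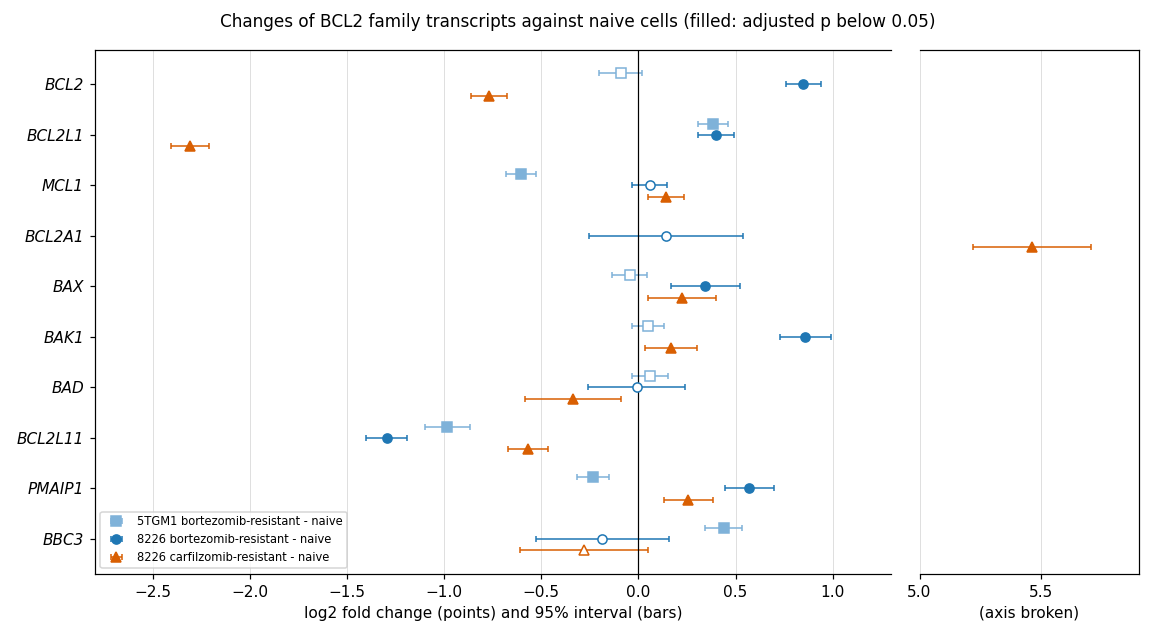
Log2 fold changes of the members against naive cells of the same line, with bars of the 95% interval; filled points were called, the horizontal axis is broken, and mouse genes stand in the row of their human symbol. BCL2L11 lies left of 0 in all 3 comparisons, BCL2L1 lies at 0.38 to 0.40 in both bortezomib-resistant lines and at -2.31 in the carfilzomib-resistant line, and BCL2A1 is off to the right at 5.46.

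In bortezomib-resistant 5TGM1, Bcl2l1 and Bbc3 rose and Mcl1, Bcl2l11 and Pmaip1 fell. This is 2 genes called higher and 3 lower among the 9 member genes that passed the filter on low counts, where 34.0% and 33.2% of all 11974 genes tested were called, 67.2% either way. No member changed 2-fold, as 3.67% of all genes did upwards and 6.14% downwards, 9.80% together. Libraries did not overlap for 6 of the 9, and for 69.6% of all genes. The members' median log2 fold change was -0.045, and that of all genes was 0.0045. The 5 macrophage markers summed to 265 to 269 CPM in naive and 351 to 402 CPM in resistant libraries, nearly all of it Cd68 (266 ± 1.80 and 373 ± 25.7 CPM). Csf1r, Cd163 and Itgam were below 1 CPM in both groups, and Mpeg1 in the resistant one. The part of other cells in the changes of the members was not tested.

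Bcl2l1 was at 219, 225 and 231 CPM in naive and 296, 301 and 285 CPM in bortezomib-resistant libraries. Mcl1 went from 540.4, 543 and 552 CPM to 344, 366 and 366 CPM. Neither gene overlapped between the groups, and the pair moved in opposite directions. Bcl2l1 rose 1.31-fold (0.38 ± 0.04, edgeR adjusted p = 3.24e-07) and Mcl1 fell 1.52-fold (-0.60 ± 0.04, edgeR adjusted p = 1.1e-09). Bcl2 was at 13.6, 14.5 and 13.5 CPM and 12.7, 13.3 and 13.1 CPM, slightly lower in every resistant library. Its difference was not called (-0.092 ± 0.057, interval -0.20 to 0.02, edgeR adjusted p = 0.165).

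The Bcl2a1 copies were nearly silent in 5TGM1. Bcl2a1a had 0 counts in all 6 libraries, Bcl2a1b had 2 counts over the naive and 1 over the resistant libraries, and Bcl2a1d had 1 count in all. A count of 0 allows a level of up to 3 counts, which is 0.0414 to 0.0612 CPM in these libraries, for counting error only. Reads that map to several places were not counted, 15.3% to 16.3% of reads in these libraries, and the 3 copies are near-identical, so their level may be understated. None of them was tested.

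**Figure D3:**
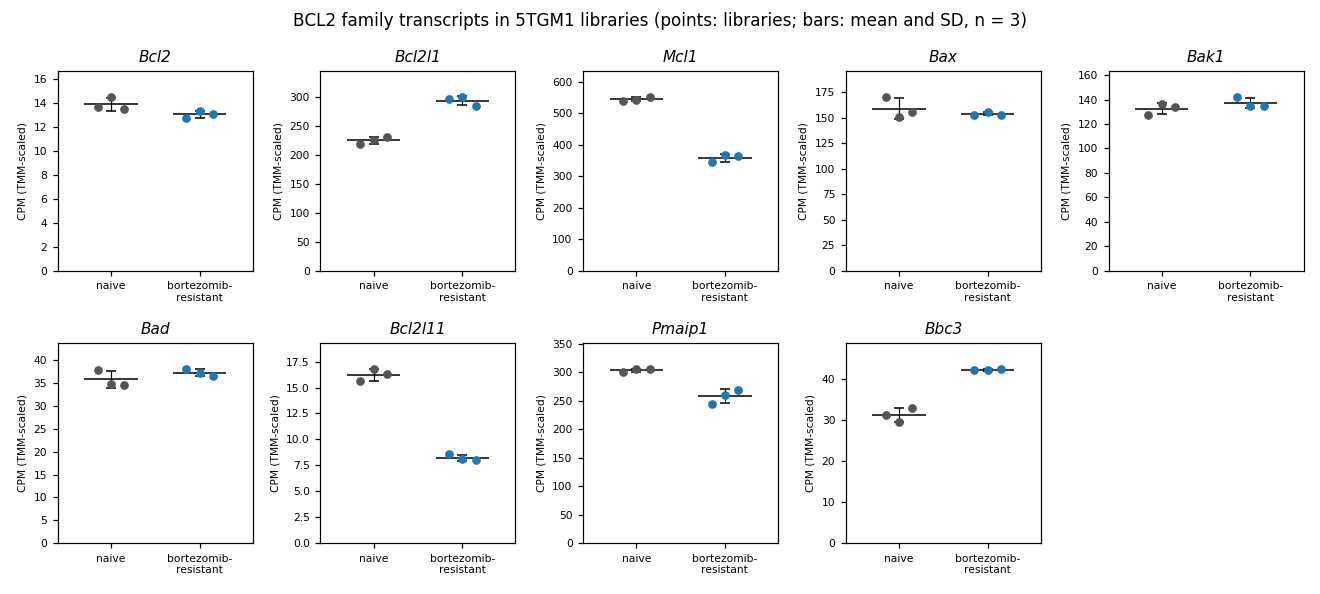
TMM-scaled CPM of the 9 tested members in the 6 libraries of 5TGM1; points are libraries and bars are the mean and SD of 3. Bcl2l1 and Bbc3 are higher and Mcl1, Bcl2l11 and Pmaip1 are lower in all 3 bortezomib-resistant libraries than in any naive library.

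Bcl2l11 was at 15.6, 16.8 and 16.3 CPM in naive and 8.54, 8.15 and 7.99 CPM in bortezomib-resistant 5TGM1, with every resistant library well below every naive one. It fell 1.98-fold (-0.98 ± 0.06, edgeR adjusted p = 4.02e-10), the largest change among the members tested in this line. Bbc3 was at 31.1, 29.5 and 32.9 CPM and 42.1, 42.0 and 42.3 CPM, higher in each resistant library. Its rise was 1.36-fold (0.44 ± 0.048, edgeR adjusted p = 5.2e-07). Pmaip1 was at 300.0, 305 and 305 CPM and 244, 261 and 269 CPM, lower in each resistant library. It fell 1.18-fold (-0.23 ± 0.042, edgeR adjusted p = 0.000129).

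Bad, Bax and Bak1 were not called in 5TGM1, and their libraries overlapped between the groups. Naive and resistant levels were 159 ± 10.2 and 154 ± 1.77 CPM for Bax, 133 ± 4.64 and 137 ± 4.23 CPM for Bak1, and 35.8 ± 1.84 and 37.3 ± 0.78 CPM for Bad (SD, n = 3). The log2 intervals of the differences were -0.14 to 0.045, -0.033 to 0.13 and -0.033 to 0.15, all of them narrow. Naive replicate 1 was the highest library for Bax, and the sign of the Bax difference turned without it (0.0074).

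The change that came with bortezomib resistance was then compared between the lines by a test of the difference itself, on 11850 genes with the same symbol in both species. The lines differ in species and in the drug concentration of their culture, which cannot be told apart from the line. The change of BCL2, MCL1, BAX, BAK1 and PMAIP1 was higher in 8226 than in 5TGM1, and that of BCL2L11 and BBC3 was lower. That made 5 of 10 members called with a higher and 2 with a lower change in 8226, where 30.5% and 34.4% of all genes were called, 64.8% either way. No member reached a 2-fold difference with a call, as 28.2% of all genes did, 11.5% upwards and 16.7% downwards. The members' median difference was 0.53, against -0.052 for all genes.

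PMAIP1 rose in 8226 and fell in 5TGM1, a log2 difference of 0.80 ± 0.083 (edgeR adjusted p = 4.73e-08). MCL1 fell in 5TGM1 and was not called in 8226, a difference of 0.66 ± 0.065 (edgeR adjusted p = 2.57e-08). BBC3 rose in 5TGM1 and was not called in 8226, a difference of -0.62 ± 0.18 (edgeR adjusted p = 0.00517). NOXA RNA thus went in opposite directions in the lines, and MCL1 and PUMA RNA moved past the spread of the libraries in 5TGM1. BCL2, BAK1 and BAX rose in 8226 and were not called in 5TGM1. Their differences were 0.94 ± 0.072, 0.81 ± 0.084 and 0.39 ± 0.11 (edgeR adjusted p = 5.55e-10, 5.2e-08 and 0.00377).

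BCL2L11 and BCL2L1 moved the same way in both bortezomib-resistant lines. BCL2L11 fell further in 8226, by a difference of -0.31 ± 0.081 (edgeR adjusted p = 0.00213; range over the alternatives 0.000322 to 0.177), a call that ended with scaling by library size alone (-0.13). The BCL2L1 difference was 0.015 ± 0.063, with an interval of -0.11 to 0.14 (edgeR adjusted p = 0.886; range 0.00665 to 1). It became a call of 0.20 with library size alone. The BAD difference was -0.067 ± 0.15 (interval -0.36 to 0.23), and that of BCL2A1, which had 4 counts over all 5TGM1 libraries, had an interval of -1.25 to 3.93 and carries no information on size.

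Ratios of partner transcripts put these changes side by side within each library, where the scaling of libraries cancels. The 8 pairs are a death gene over a pro-survival gene that its protein binds or opposes, or 1 pro-survival gene over another. They compare conditions only, since raw counts of different genes depend on gene length, and they were not tested. In bortezomib-resistant 8226 the BCL2L11/BCL2 ratio fell 4.42-fold (log2 shift -2.14) and BCL2L11/MCL1 2.56-fold (-1.35). BAK1/MCL1 went up 1.74-fold (0.80), PMAIP1/MCL1 1.43-fold (0.51) and BCL2/MCL1 1.73-fold (0.79). BAX/BCL2 was 1.41-fold lower (-0.50), without overlap with the naive libraries. BCL2L1/MCL1 was 1.27-fold higher (0.34). BAD/BCL2L1 shifted by -0.40 and overlapped the naive libraries. So BIM RNA lost ground to both pro-survival partners and BAX RNA to BCL2, while BAK and NOXA RNA gained on MCL1.

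In carfilzomib-resistant 8226, BCL2L11/MCL1 was 1.64-fold lower (-0.71) and PMAIP1/MCL1 was higher by 0.12, both in the direction seen in bortezomib-resistant cells. BCL2L1/MCL1 was 5.48-fold lower (-2.45) and BCL2/MCL1 1.88-fold lower (-0.91), which left MCL1 with a larger share of the reads of these 3 survival genes than in naive cells. BAX/BCL2 was higher by 1.00 on the log2 scale and BAD/BCL2L1 3.98-fold higher (1.99). BCL2L11/BCL2, which had the largest shift in bortezomib-resistant cells, moved by 0.20 here, where both genes fell. BAK1/MCL1 overlapped the naive libraries, with a shift of 0.027.

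In bortezomib-resistant 5TGM1, Mcl1 and Bcl2l11 were the partners that fell most. Bcl2l1/Mcl1 was 1.98-fold higher (0.99) and Bak1/Mcl1 1.57-fold higher (0.65). Pmaip1/Mcl1 was 1.29-fold higher (0.37), although Pmaip1 itself fell. Bcl2l11/Bcl2 was 1.86-fold lower (-0.89), the same direction as in bortezomib-resistant 8226. Bax/Bcl2 shifted by 0.044 and overlapped the naive libraries. The remaining pairs did not overlap them: Bcl2/Mcl1 shifted by 0.52, Bcl2l11/Mcl1 by -0.38 and Bad/Bcl2l1 by -0.32.

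**Figure D4:**
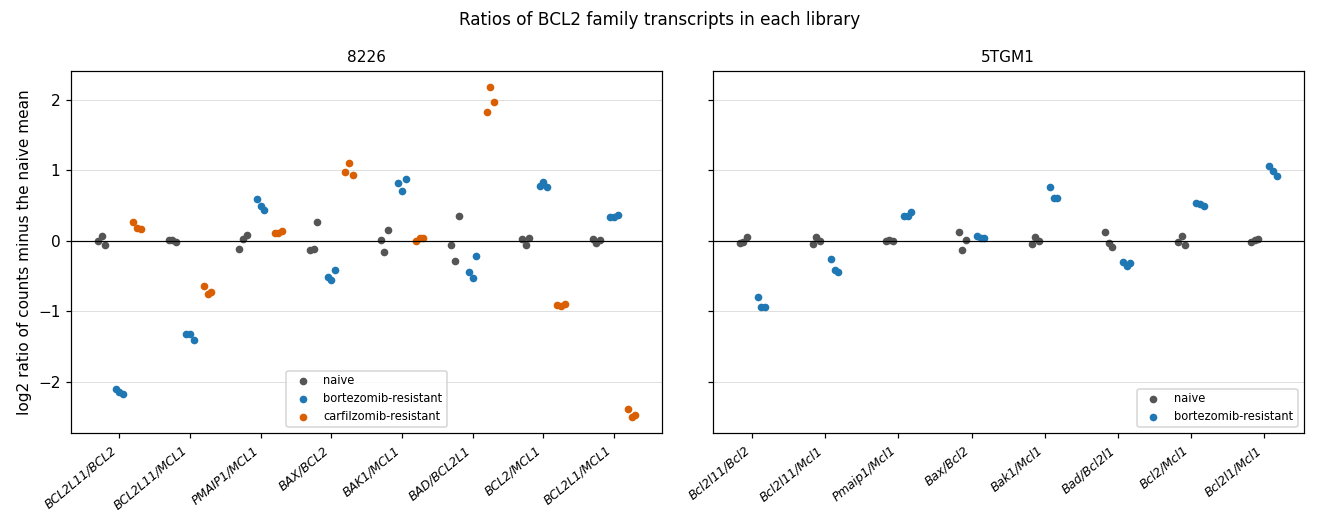
Log2 ratio of the counts of 2 members in each library, minus the mean of the naive libraries of that line; each point is a library. In 8226 the BCL2L11/BCL2 points of bortezomib-resistant cells lie near -2.14 and the BCL2L1/MCL1 points of carfilzomib-resistant cells near -2.45, and in 5TGM1 the Bcl2l1/Mcl1 points of bortezomib-resistant cells lie near 0.99.

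The rest of the BCL2 family was examined from lists chosen by role. BCL2L2, the gene of the pro-survival protein BCL-W, rose in bortezomib-resistant 8226 from 9.47 ± 0.44 to 14.9 ± 1.18 CPM (0.65 ± 0.085, edgeR adjusted p = 3.93e-06) and fell in bortezomib-resistant 5TGM1 from 98.3 ± 4.06 to 55.4 ± 1.43 CPM (-0.83 ± 0.044, edgeR adjusted p = 6.84e-11). It was not called in carfilzomib-resistant 8226 (-0.10 ± 0.086). BCL2L10 and the effector BOK had at most 12 counts in any group and were not tested.

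Of the 4 further BH3-only genes, 1 was called higher and 3 lower in bortezomib-resistant 8226 (median log2 fold change -0.84), where 38.2% and 41.6% of all genes were. BIK, which acts at the endoplasmic reticulum, went from 10.2 ± 0.89 CPM in naive cells, 1234 counts, to 6 counts in the 3 bortezomib-resistant libraries, and stood at 9.15 ± 0.84 CPM in carfilzomib-resistant cells. The fitted log2 fold change in bortezomib-resistant cells was -7.44 ± 0.24 (edgeR adjusted p = 2.29e-13). That value rests on the 6 counts: leaving out 1 library gave -8.40 (bortezomib-resistant replicate 2) to -7.12, and counting reads without regard to strand gave -5.26. BMF, which is bound to the cytoskeleton until released, fell from 25.5 ± 0.37 to 5.71 ± 0.11 CPM in carfilzomib-resistant cells (-2.16 ± 0.075, edgeR adjusted p = 8.76e-13) and less in bortezomib-resistant cells (-0.40 ± 0.069, edgeR adjusted p = 7.28e-05). BMF was the 1 of 4 called in carfilzomib-resistant cells (median -0.30; 71.7% of all genes), and 2 of 4 were called with library size alone or without naive replicate 3. BID, which links death receptors to mitochondria, rose in bortezomib-resistant 8226 (0.36 ± 0.074, edgeR adjusted p = 0.000379).

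In 5TGM1, 2 of the 3 tested BH3-only genes were called higher and 1 lower (median 0.14; 67.2% of all genes either way), with Bmf at 0.14 ± 0.05 (edgeR adjusted p = 0.0201) and Bid at -0.14 ± 0.039 (edgeR adjusted p = 0.00528). Bik, the other gene tested, was called higher at 2.22, the opposite direction to BIK in bortezomib-resistant 8226. It was low, with 15 counts over the naive and 68 over the resistant libraries, below 1 CPM in both. The Bmf call ended without either naive replicate 1 or 3, or resistant replicate 1 or 2 (log2 fold changes 0.11 to 0.13). Of 6 distant relatives, Bnip3, a mitophagy receptor, rose from 89.7 ± 1.29 to 249 ± 7.16 CPM in 5TGM1 (1.48 ± 0.041, edgeR adjusted p = 1.53e-14). Its human counterpart BNIP3 rose in bortezomib-resistant 8226 from 28.7 ± 1.78 to 54.5 ± 0.41 CPM (0.93 ± 0.067, edgeR adjusted p = 4.12e-09). Of the tested distant relatives, 2 of 4 were called in bortezomib-resistant 8226 (both higher; median 0.13), 2 of 4 in carfilzomib-resistant 8226 (1 in each direction; median 0.16; 4 genes with library size alone, and 4 when genes of low counts were tested too) and 4 of 6 in 5TGM1 (2 in each direction; median -0.20), beside 79.8%, 71.7% and 67.2% of all genes.

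Downstream of the pore, 14 genes of the mitochondrial execution of apoptosis were listed. In bortezomib-resistant 8226, 10 were called higher and 2 lower (median 0.39), in carfilzomib-resistant 8226, 6 higher and 3 lower (median 0.092), and in 5TGM1, 9 higher and 1 lower of 13 tested (median 0.17). Of all genes, 38.2% were called higher and 41.6% lower in the first of these comparisons, 35.0% and 36.7% in the second and 34.0% and 33.2% in the third. APAF1, the scaffold of the apoptosome, rose from 19.7 ± 1.21 CPM in naive 8226 to 58.4 ± 2.82 CPM in bortezomib-resistant (1.57 ± 0.064) and 54.8 ± 1.67 CPM in carfilzomib-resistant cells (1.48 ± 0.063), with edgeR adjusted p of 3.25e-12 and 1.02e-11. CASP9, the initiator caspase it activates, rose in both as well (1.04 ± 0.06 and 0.48 ± 0.06, edgeR adjusted p = 2.22e-10 and 3.36e-06). ENDOG was called lower in carfilzomib-resistant cells (-0.53 ± 0.099, edgeR adjusted p = 0.000186), a call that ended when reads were counted without regard to strand (-0.056; range of adjusted p over the alternatives 3.43e-07 to 0.788).

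In 5TGM1, Diablo, an antagonist of the inhibitor of apoptosis proteins, rose (0.38 ± 0.043, edgeR adjusted p = 9.1e-07). Vdac2, a channel of the outer membrane that holds BAK, fell from 319.7 ± 2.09 to 162 ± 3.13 CPM (-0.98 ± 0.038, edgeR adjusted p = 1.36e-12). Its relative Vdac3 rose (0.50 ± 0.041, edgeR adjusted p = 1.54e-08).

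Among 6 tested inhibitors of apoptosis outside the family, 2 were called higher and 3 lower in bortezomib-resistant 8226 (median -0.07), 3 and 3 in carfilzomib-resistant 8226 (median -0.015) and 2 and 3 in 5TGM1 (median -0.14). In these comparisons 79.8%, 71.7% and 67.2% of all genes were called either way, so most of such a list being called is the usual case. BIRC3, a ubiquitin ligase of NF-kB signalling, rose from 70.5 ± 2.79 CPM in naive 8226 to 278 ± 22.4 CPM in bortezomib-resistant and 154 ± 3.36 CPM in carfilzomib-resistant cells (1.98 ± 0.062 and 1.12 ± 0.061, edgeR adjusted p = 1.41e-13 and 1.79e-10). CFLAR, which blocks caspase-8, fell in both (-0.54 ± 0.052 and -0.60 ± 0.052, edgeR adjusted p = 1.36e-07 and 4.86e-08). BIRC5, the gene of survivin, fell in bortezomib-resistant cells (-1.31 ± 0.05, edgeR adjusted p = 1.73e-12) and less in carfilzomib-resistant cells (-0.22 ± 0.049, edgeR adjusted p = 0.000787).

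A list of 16 transcription factors known to act on members held 6 called higher and 7 lower in bortezomib-resistant 8226 (median -0.036), 8 and 5 in carfilzomib-resistant 8226 (median 0.066), and 2 and 9 of 15 tested in 5TGM1 (median -0.13). The shares of all genes called were 79.8%, 71.7% and 67.2%. STAT5A was at 7.61 ± 0.43 CPM in naive 8226, had 1 count over the 3 bortezomib-resistant libraries and was at 1.16 ± 0.24 CPM in carfilzomib-resistant cells (-2.71 ± 0.14, edgeR adjusted p = 9.05e-11). TP73, a relative of p53, had 146 counts in naive, 1 in bortezomib-resistant and 0 in carfilzomib-resistant libraries. REL, an NF-kB subunit, rose in both resistant 8226 lines (0.74 ± 0.11 and 0.87 ± 0.11, edgeR adjusted p = 1.88e-05 and 3.2e-06), and fell in 5TGM1 (-0.85 ± 0.06, edgeR adjusted p = 2.89e-09). In 5TGM1, Trp53 also fell (-0.42 ± 0.039, edgeR adjusted p = 7.3e-08) and Ddit3, the stress factor CHOP, rose (0.45 ± 0.051, edgeR adjusted p = 8.78e-07).

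Enzymes that control the stability of the proteins were described in the same way. Of 6 ubiquitin ligases and deubiquitinases, 5 were called higher and 1 lower in each resistant 8226 line (medians 0.39 and 0.38), and 1 higher and 3 lower in 5TGM1 (median -0.14). The shares of all genes called higher were 38.2%, 35.0% and 34.0%, and lower 41.6%, 36.7% and 33.2%. USP9X, which stabilises MCL-1, was the gene that fell in carfilzomib-resistant cells (-0.73 ± 0.065, edgeR adjusted p = 7.1e-08) and it rose in bortezomib-resistant cells (0.34 ± 0.065, edgeR adjusted p = 0.000159). HUWE1, an MCL-1 ligase, rose in carfilzomib-resistant cells (0.68 ± 0.089, edgeR adjusted p = 5.5e-06).

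BTRC, part of another ligase of MCL-1 and BIM, rose in bortezomib-resistant 8226 (1.05 ± 0.067, edgeR adjusted p = 8.21e-10). Of 12 genes for kinases and 14-3-3 proteins that silence BAD, 4 were called higher and 6 lower in bortezomib-resistant 8226 (median -0.25), 4 and 5 in carfilzomib-resistant 8226 (median -0.053) and 2 and 3 in 5TGM1 (median 0.028), where 79.8%, 71.7% and 67.2% of all genes were called either way. PIM2, a kinase of myeloma cells, fell in all 3 resistant lines: -1.30 ± 0.048 and -1.42 ± 0.048 in 8226 and -1.29 ± 0.041 in 5TGM1 (edgeR adjusted p = 1.07e-12, 5.93e-13 and 9.67e-14). SFN, a 14-3-3 protein, rose in both 8226 lines (1.17 ± 0.07 and 1.61 ± 0.07, edgeR adjusted p = 3.94e-10 and 1.16e-11).

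Across the 9 libraries of 8226, the genes whose log2 CPM followed BCL2 most closely were SLC44A1, TNFRSF10D and SLC4A11 (Pearson r 0.999 each). Those nearest BCL2L1 were PRKD1 (1.00), MYO5B (0.999) and C10orf10 (0.999), and those nearest MCL1 were C5orf45 (0.984), LRRC40 (0.983) and GNPDA2 (0.976). These values describe libraries that fall into 3 groups, so a high r is common: 1363, 903 and 316 of 13909 other genes passed 0.9 with BCL2, BCL2L1 and MCL1.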

How the data were processed

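Each of the 15 libraries came with a gene table of read counts deposited by the authors, whole numbers that are not normalized, in the layout written by STAR. STAR and the builds mm10, hg19, GRCm38 and GRCh37 are named in the submitters' processing notes, and versions are not given in the sources used here. Column 4, reads on the strand opposite to the gene, holds nearly all stranded reads (1.43% to 2.12% lay in the other stranded column), and it was used throughout. Rows that name no gene stayed out. Reads mapping to several places, 8.95% to 10.9% in 8226 and 15.3% to 16.3% in 5TGM1, are not counted.

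Groups and replicate numbers came from the titles. Counts were scaled by TMM and filtered by filterByExpr within each line, and tested with edgeR 4.0.16 (R 4.3.3), all 9 human libraries sharing a fit. SEs were derived from the F statistic. The difference between the lines was fitted over 12 libraries and same-symbol genes, with the mouse Bcl2a1 copies summed. The procedure was tested on simulated data in which few genes changed. That test does not cover scaling where most genes are called, as in these data. Alternatives were library size alone, DESeq2 1.42.0 size factors and Wald test, no filter, counts without regard to strand (column 2), 2-group fits, the replicate block and leaving out each library.

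The members and lists were chosen with earlier results of these data known. All members are named. Of each other list, up to 4 called genes with the largest change and at least 1 CPM in the higher group could be named. Promoters came from RefSeq, GRCh38.p14, a build other than the files'. Likeness used log2(CPM + 0.5).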

Additional observations from a re-analysis of the deposited data

Results flagged for a closer look

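The change with bortezomib resistance differed between 8226 and 5TGM1 for 7 members by the test of the difference itself, given here as the log2 change in 8226 minus that in 5TGM1. The differences were 0.94 for BCL2, 0.81 for BAK1, 0.80 for PMAIP1, 0.66 for MCL1, 0.39 for BAX, -0.31 for BCL2L11 and -0.62 for BBC3. As 64.8% of all same-symbol genes differed between the lines in this test, a difference of this kind was the usual case. Of the 7, PMAIP1 was called in opposite directions in the lines, and BCL2L11 in the same direction in both.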

How the results depend on the processing

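Over the alternative settings, 777 values of 49 member results were recomputed: 736 kept direction and call, 21 lost the call, 5 gained one and 15 changed sign. The total includes settings that could hardly move a value. These are leaving out libraries of the 8226 group not compared, and summing the mouse Bcl2a1 copies, where 9 values of the other members stayed the same. Requiring a 2-fold change left 0 members called in 5TGM1, 1 in bortezomib-resistant 8226, 2 in carfilzomib-resistant 8226, 3 between the resistant 8226 lines and 0 for the difference between lines, a stricter rule by construction. Signs changed only in differences that were not called. With library size alone BAD was 0.18 in bortezomib-resistant 8226 and 0.12 in the difference between lines, and MCL1 was -0.040 between the resistant 8226 lines; this scaling split the called genes of bortezomib-resistant 8226 into 6666 higher and 4680 lower (5314 and 5781 with TMM) and those of the difference between lines into 4566 and 3279 (3610 and 4071). The BCL2L1 difference between lines was -0.0083 with DESeq2 size factors, -0.0085 in the DESeq2 Wald test, -0.0020 with no filter, -0.0072 without 5TGM1 naive replicate 3 and -0.012 without 5TGM1 bortezomib-resistant replicate 3. Leaving out each library in turn gave ranges that crossed 0 for Bax in 5TGM1 (-0.087 to 0.0074, turned without naive replicate 1), BAD in bortezomib-resistant 8226 (-0.14 to 0.17, turned without naive replicate 3, and at 0.024 and 0.059 without bortezomib-resistant replicates 1 and 2) and BAD in the difference between lines (-0.20 to 0.11, turned without 8226 naive replicate 3). They did so too for BBC3 in bortezomib-resistant 8226 (-0.36 to 0.012, turned without naive replicate 3), BBC3 between the resistant 8226 lines (-0.17 to 0.074, turned without bortezomib-resistant replicate 3) and the BCL2L1 difference between lines (-0.012 to 0.035). The cause was not tested. Of the other named genes' values, 1538 of 1556 kept their call and 18 lost it. All 168 ratio values stayed within 1 SD, the SDs of the resistant and naive groups combined. Leaving out 1 of 3 libraries cannot move a group mean that far. Only the ratios counted without regard to strand could have failed. The labels do not say whether replicate numbers pair the libraries. After removing group means, same-numbered libraries correlated at -0.32 to -0.18 in 5TGM1 and -0.35 to 0.42 in 8226. Libraries with different numbers correlated at -0.16 to 0.35 in 5TGM1 and -0.34 to 0.29 in 8226. With 3 libraries a group, these values cannot settle whether the libraries are paired. With the replicate block 7717 genes were called in 5TGM1, 11094, 9988 and 10708 in the 8226 comparisons and 7711 for the difference, and no member's call changed. Leave-one-out counts of called genes ran from 7408 to 8148, 10781 to 11195, 9451 to 10117, 10239 to 11045 and 7313 to 7814, and of members from 5 to 5, 6 to 7, 7 to 9, 6 to 7 and 7 to 7. The summed mouse Bcl2a1 copies did not pass the filter in the 5TGM1 fit and gave no value. Depth limits BCL2A1 in naive and bortezomib-resistant 8226 and the Bcl2a1 copies.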
